A study of Mus musculus with 6 samples.

Results

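Of the 70705 regions of trimethylated lysine 9 of histone H3 (H3K9me3) that were merged from 4 libraries of mouse neural stem cells (NSCs) on chromosomes 1 to 19, 1826 were gained after PHF8 knockdown and lay outside protein-coding genes. These regions were chosen by the peak calls themselves: each held at least 1 peak from each shPHF8 library and none from shCTR, overlapped no protein-coding gene of the GENCODE annotation and lay more than 3 kb from every protein-coding start site. Their presence and width in shPHF8 are therefore descriptions, with no test. They made up 4.93% of the 37055 regions outside protein-coding genes and together spanned 8.33 Mb. Wherever they lay, 3031 of the 70705 regions (4.29%) were gained.

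The NSCs came from the fetal cerebral cortex (E12.5) of C57BL/6J mice, were grown with EGF and FGF, and were infected with lentivirus carrying a scrambled control shRNA (shCTR) or one directed at PHF8 (shPHF8), both under puromycin selection. There were 2 chromatin immunoprecipitation (ChIP) libraries and 1 input per condition, sequenced as single-end reads of 50 bases, and nothing in the labels ties a shCTR library to a shPHF8 library or says that replicates were separate cultures. The deposited lists give peak positions only, without read counts or peak heights, so presence was not adjusted for depth, the knockdown of Phf8 cannot be checked from them, and neither can the identity of the cells.

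H3K9me3 marks heterochromatin: methyltransferases such as SETDB1 and SUV39H1 write it, HP1 proteins bind it, and it is known for silencing repeats, pseudogenes and clustered gene families that a tissue does not use. PHF8 is a Jumonji demethylase of the KDM7 family, known to remove lower methylation states of H3K9 and of H4K20 at promoters. Regions outside protein-coding genes hold long noncoding RNA (lncRNA) genes, pseudogenes, small RNA genes, distal regulatory DNA and most of the repeats of the genome.

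On chromosomes 1 to 19 shCTR replicates 1 and 2 had 53039 and 53852 peaks, with a median width of 2400 bp in both. The shPHF8 libraries had 44205 peaks of 4200 bp in the median (replicate 1) and 55344 of 2800 bp (replicate 2). Peaks of shPHF8 replicate 1 were thus fewer and wider than those of the other 3 libraries. Whether this difference between the shPHF8 replicates has a part in the results below was not tested.

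Sequences of 6 gained regions are shown first, because they span the range of the set: the widest region, the region over the let-7a-2 gene, regions from the densest clusters on chromosomes 13 and 12, the region with the most CpG, and the region farthest from a protein-coding start site. Each is 300 bases around the midpoint of the stretch covered in both shPHF8 libraries, read 5′ to 3′ on the forward strand of GRCm38 (mm10). CpG dinucleotides, the site of DNA methylation, are in capitals.
Region over the pseudogene Serpina3e-ps, chr12:104187151-104187450: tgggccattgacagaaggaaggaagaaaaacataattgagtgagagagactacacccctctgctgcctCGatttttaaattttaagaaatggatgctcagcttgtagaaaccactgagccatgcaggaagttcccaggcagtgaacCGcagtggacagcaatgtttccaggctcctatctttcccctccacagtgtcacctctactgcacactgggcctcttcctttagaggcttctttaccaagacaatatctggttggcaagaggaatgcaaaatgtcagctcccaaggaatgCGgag
Region beside the let-7a-2 gene, chr9:41535651-41535950: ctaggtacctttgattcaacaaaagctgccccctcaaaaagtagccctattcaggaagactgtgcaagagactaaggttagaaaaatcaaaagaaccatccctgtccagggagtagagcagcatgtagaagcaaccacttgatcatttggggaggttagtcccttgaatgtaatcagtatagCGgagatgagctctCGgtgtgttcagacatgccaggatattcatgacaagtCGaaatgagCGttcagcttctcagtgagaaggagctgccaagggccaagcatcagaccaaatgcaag
Region near Irx2, chr13:72788351-72788650: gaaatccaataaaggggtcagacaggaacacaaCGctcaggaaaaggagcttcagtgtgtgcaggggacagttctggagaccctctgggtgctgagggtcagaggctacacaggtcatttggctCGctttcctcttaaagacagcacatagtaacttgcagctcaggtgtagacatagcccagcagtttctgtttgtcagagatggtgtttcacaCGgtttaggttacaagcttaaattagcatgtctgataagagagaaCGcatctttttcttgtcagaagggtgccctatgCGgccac
Region near 5730507C01Rik, chr12:18547051-18547350: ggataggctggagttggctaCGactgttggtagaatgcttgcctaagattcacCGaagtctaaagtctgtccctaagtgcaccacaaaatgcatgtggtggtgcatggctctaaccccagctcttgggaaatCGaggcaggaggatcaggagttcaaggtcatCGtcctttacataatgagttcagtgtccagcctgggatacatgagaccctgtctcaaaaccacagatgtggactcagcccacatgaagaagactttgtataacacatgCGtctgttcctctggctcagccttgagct
Region over the start of Gm40849, chr12:19044051-19044350: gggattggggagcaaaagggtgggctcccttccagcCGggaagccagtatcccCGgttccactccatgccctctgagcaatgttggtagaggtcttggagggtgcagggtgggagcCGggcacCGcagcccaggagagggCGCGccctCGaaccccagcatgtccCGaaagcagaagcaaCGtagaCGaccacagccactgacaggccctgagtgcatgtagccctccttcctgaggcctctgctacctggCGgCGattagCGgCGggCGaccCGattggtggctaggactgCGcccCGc
Region far from Pcdh9, chr14:91826951-91827250: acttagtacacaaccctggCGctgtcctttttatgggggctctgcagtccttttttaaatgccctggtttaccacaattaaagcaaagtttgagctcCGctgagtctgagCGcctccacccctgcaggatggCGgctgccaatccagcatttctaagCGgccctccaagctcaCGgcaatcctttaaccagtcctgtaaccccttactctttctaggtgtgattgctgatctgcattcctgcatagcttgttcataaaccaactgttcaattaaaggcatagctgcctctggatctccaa

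The stretch from the region that holds the start of Gm40849 had 18 CpG in 300 bases and a G+C content of 65.3%. Whether that start lies within these 300 bases was not determined. The other 5 stretches held 3 to 6 CpG at a G+C content of 46.3 to 49.3%. The stretch near Irx2 had no repeat-masked base, that is, none written in lower case in the reference because it belongs to a known repeat, whereas the stretch far from Pcdh9 was 82.7% repeat-masked.

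The gained regions had a median width of 4200 bp and ranged from 1000 to 16600 bp. Peaks covered a median of 3800 bp of them in shPHF8 replicate 1, with a range from 600 to 13000 bp, and a median of 2800 bp in shPHF8 replicate 2, with a range from 400 to 13400 bp. Replicate 1 covered more bases than replicate 2 in 1353 regions (74.1%), fewer in 367 (20.1%) and equally many in 106. Across the 1826 regions, which share both libraries, the covered bases of the replicates had a Spearman's rho of 0.371. In 1761 regions (96.4%) each shPHF8 library had exactly 1 peak. The stretch covered by both libraries had a median of 2400 bp and made up at least 50% of the region in 1211 cases (66.3%). A peak in both replicates is what the rule asks for, but its width often differed, and in 440 regions (24.1%) one peak set covered at least 2 times as many bases as the other.

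**Figure D1:**
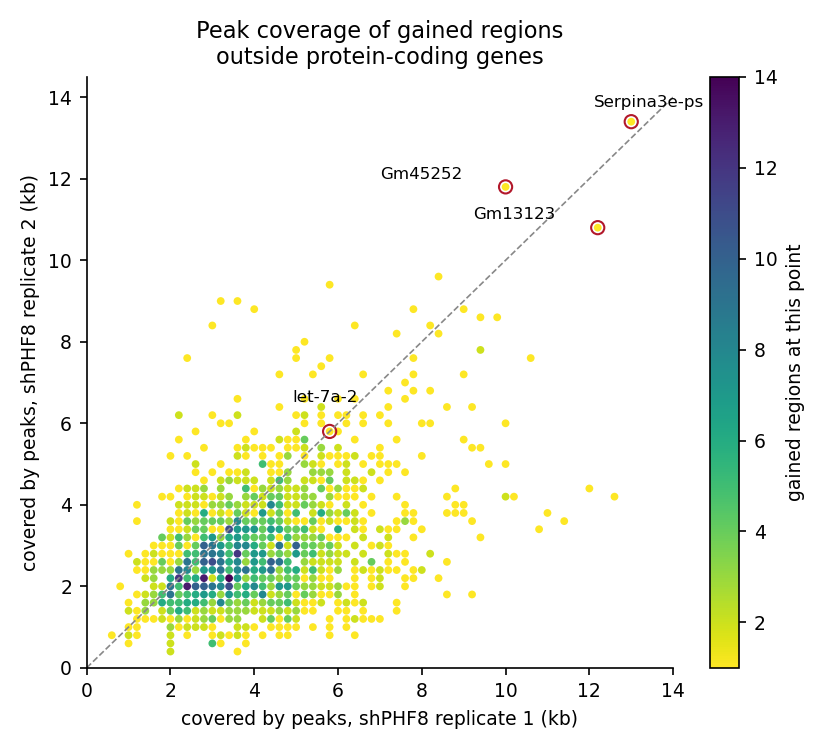
Bases covered by peaks (kb) in shPHF8 replicate 1 (x axis) and replicate 2 (y axis) for the 1826 gained regions outside protein-coding genes. Each point is a pair of values, its colour gives how many regions share it, the dashed line marks equal coverage and red circles mark 4 named regions. Most points lie below the line, with a median of 3800 bp in replicate 1 and 2800 bp in replicate 2, and 3 regions stand apart at the top right.

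The widest gained region lay in the cluster of Serpina3 genes, which encode secreted inhibitors of serine proteases. It spanned chr12:104182601-104199200 over the pseudogene Serpina3e-ps, 15344 bp from the start of Serpina3f, and was covered over 13000 and 13400 bp in shPHF8 replicates 1 and 2. Neither shCTR library had a peak in it, and the nearest shCTR peak was 7600 bp away. A smaller gained region, chr12:104208201-104211600, lay in the same cluster at 2944 bp from the start of Serpina3f, just within the 3 kb limit and thus not a member, with 3400 and 2000 bp covered.

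The next widest region, chr8:30999401-31013600, covered the processed pseudogene Gm45252 and lay 75871 bp from Dusp26, which encodes a phosphatase. It was covered over 10000 and 11800 bp, and its nearest shCTR peak was 41000 bp away. Dusp26 was the nearest protein-coding gene of 7 gained regions among 27 regions outside protein-coding genes, of which 0 were lost. Over all regions outside protein-coding genes 4.93% were gained and 3.74% lost. Dusp26 is 1 of 1360 nearest genes, and its counts are small and were not tested. The third widest region, chr4:144236201-144249800, covered the processed pseudogene Gm13123 in the cluster of Pramel genes, which are expressed in germ cells. It was covered over 12200 and 10800 bp, and its nearest shCTR peak was 6200 bp away. These 3 regions were the only ones with more than 10000 bp in one shPHF8 library and at least 10000 bp in the other.

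The remaining 7 of the 10 widest regions spanned 12000 to 13400 bp. The region chr13:43865601-43879000, covered over 10600 and 7600 bp, overlapped the lncRNA gene Gm33195 and an snRNA gene near Cd83, which encodes a surface protein of dendritic and B cells. The region chr7:37117801-37130400 held the start of the lncRNA gene Gm28078 and had Zfp536, a zinc finger gene of the developing brain, as its nearest protein-coding gene at 341735 bp. The shPHF8 replicates differed there, with 12600 bp covered in replicate 1 and 4200 bp in replicate 2. The region chr17:49228201-49240800 was covered over 6600 and 7200 bp, yet only 1200 bp were shared by both. It lay 130613 bp from Lrfn2, which encodes a synaptic adhesion molecule.

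Other regions of this width lay 152469 bp from Hs3st4 (6400 and 8400 bp covered), 203385 bp from Zmiz1 (9800 and 8600 bp) and 41346 bp from Cradd (12000 and 4400 bp). The last of the 10, chr7:14574001-14586000, overlapped the pseudogene Nlrp5-ps and lay 10495 bp from the vomeronasal receptor gene Vmn1r90, with 7400 and 8200 bp covered. Of the 10 widest regions, 7 thus overlapped a pseudogene or lncRNA gene, counting Gm29684 near Cradd, and 3 overlapped no annotated gene of any kind. Among the regions with the most bases in both libraries was also chr12:114790601-114799600 in the immunoglobulin heavy chain locus, covered over 9000 and 8800 bp.

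Peaks of the shCTR libraries were not far from most gained regions. The nearest shCTR peak was at a median of 9400 bp and at 200 bp to 1112400 bp over all 1826. It lay within 1 kb of 77 regions (4.22%) and within 10 kb of 950 (52.0%), while 222 regions (12.2%) had none within 50 kb. The 50 kb on each side of a gained region were covered on average to 8.31% and 8.41% by peaks of shCTR replicates 1 and 2, and to 14.8% and 13.3% by peaks of shPHF8 replicates 1 and 2. Both shPHF8 libraries covered more of these flanks than both shCTR libraries at 997 of 1826 regions (54.6%), and both covered less at 57 (3.12%). Over all 37055 regions outside protein-coding genes the same counts were 16412 (44.3%) and 2592 (7.0%). The flanks of lost regions, which had peaks in both shCTR libraries but in no shPHF8 library, were covered to 12.6% and 13.3% in shCTR and to 15.1% and 13.1% in shPHF8, so that the values of the conditions overlapped there. No test was made on these flanks, because neighbouring peaks are called together and regions are not replicates.

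Regions with a peak in all 4 libraries, called shared below, were farther from gained regions than from lost ones. A shared region lay within 10 kb of 592 of 1826 gained regions (32.4%, 95% Wilson interval 30.3 to 34.6%) and of 582 of 1385 lost regions (42%, 39.4 to 44.6%). It was more than 100 kb away from 312 gained regions (17.1%) and 172 lost regions (12.4%). Wilson intervals here cover counting error over regions only, not the spread between libraries.

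**Figure D2:**
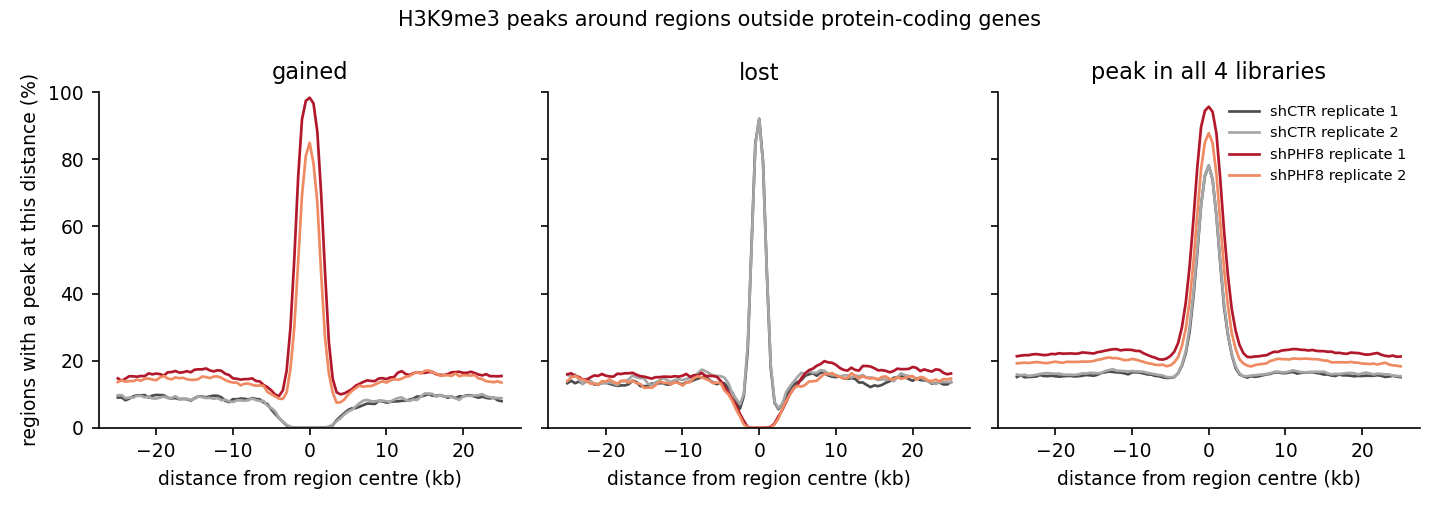
Share of regions (%, y axis) that had a peak of each library at each distance from the region's centre (kb, x axis), for the 1826 gained, 1385 lost and 13194 shared regions outside protein-coding genes. In the left panel both shPHF8 lines stay above both shCTR lines on either side of the centre, at 16.4% and 15.7% against 9.36% and 9.36% at +20 kb. The heights at the centre are set by how the regions were chosen.

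Outside the gained and lost regions, peaks also covered more sequence in shPHF8. In the other regions outside protein-coding genes they covered 70.9 and 71.4 Mb in shCTR replicates 1 and 2, and 105 and 96.0 Mb in shPHF8 replicates 1 and 2. The means were 71.2 ± 0.365 Mb (SD, n = 2) and 100 ± 6.00 Mb (SD, n = 2), a difference of 29.1 Mb and a ratio of 1.41. The values of the conditions did not overlap, and an exact two-sided permutation test gave p = 0.333, the smallest p that 2 libraries against 2 allow. The design therefore cannot reach 0.05.

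Among the 37055 regions outside protein-coding genes, 1385 (3.74%) were lost, fewer than the 1826 (4.93%) gained. In or near protein-coding genes the order was the opposite, with 1205 of 33650 regions gained (3.58%) and 2153 lost (6.4%). These counts rest on both shCTR libraries: without shCTR replicate 1, 3436 regions outside protein-coding genes were gained and 4302 lost, and without shCTR replicate 2, 3379 were gained and 4143 lost. By library, 13194 regions outside protein-coding genes (35.6%) had a peak in all 4. A further 4548 (12.3%) had one in shPHF8 replicate 2 only, and 1808 (4.88%) in shPHF8 replicate 1 only. The 1826 gained regions were thus about as many as those of shPHF8 replicate 1 alone.

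Pseudogenes are disabled copies of genes, and processed pseudogenes arose by reverse transcription of an mRNA. The gained regions overlapped a pseudogene in 119 cases (6.52%, 5.47 to 7.74%), against 37 of the lost regions (2.67%, 1.94 to 3.66%) and 846 of the 13194 shared regions (6.41%, 6.01 to 6.84%). Over all 37055 regions outside protein-coding genes, 1892 (5.11%) overlapped one. Gained regions touched 121 pseudogenes in all, 91 of them processed. As gained regions were wider than lost ones (median 4200 against 2600 bp), starts were also counted per length: gained regions held 11.6 pseudogene starts per Mb, lost regions 6.42, shared regions 8.38 and all regions outside protein-coding genes 9.21. Among regions 3 to 6 kb wide, 81 of 1224 gained (6.62%, 5.36 to 8.15%) and 17 of 496 lost regions (3.43%, 2.15 to 5.42%) overlapped a pseudogene, with intervals that overlap. Among regions made of sequence that is at least 90% unique, as defined below, the shares were 5.00% (3.97 to 6.28%) and 2.19% (1.5 to 3.19%). The share in gained regions was therefore above that in lost regions in each of these 3 comparisons, and gained and shared regions had overlapping intervals over all widths.

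The widest gained regions over pseudogenes, after those already named, included chr15:58847201-58858600 over a processed pseudogene of Ube2d4, a gene for a ubiquitin-conjugating enzyme. It was covered over 10000 and 4200 bp, and its nearest shCTR peak was 90400 bp away.

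Genes of lncRNAs were overlapped by 270 gained regions (14.8%, 13.2 to 16.5%), 245 lost regions (17.7%, 15.8 to 19.8%) and 2199 shared regions (16.7%, 16.0 to 17.3%), with 15.1% over all regions outside protein-coding genes, inside the gained interval. A lncRNA start lay in 38 gained regions (2.08%), which came to 4.80 starts per Mb, against 8.55 in lost and 6.29 in shared regions. Gained regions thus held fewer lncRNA starts and more pseudogene starts per length than lost regions. Taken over every class of noncoding gene and pseudogene, 409 gained regions (22.4%, 20.5 to 24.4%) and 297 lost regions (21.4%, 19.4 to 23.7%) overlapped at least 1, and these intervals overlapped. The share over all regions outside protein-coding genes was 20.8%, also inside the gained interval.

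The widest gained region over a lncRNA start was that at Gm28078 described above. It was followed by chr6:32746801-32756400 at BC049739 (8800 and 4400 bp covered), chr17:49106801-49115600 at 1700008K24Rik (4000 and 8800 bp), chr9:41529401-41537600 at Gm48742 (5800 and 5800 bp) and chr9:48046201-48053800 at A730065G17Rik (2400 and 7600 bp). The region at 1700008K24Rik lay 9213 bp from Lrfn2, on the same stretch of chromosome 17 as the wide region named above. Coverage by the shPHF8 replicates was equal in the region on chromosome 9 at Gm48742 and differed by at least 2 times in the other 3.

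Gained regions overlapped the body of 3 lncRNA genes that neighbour transcription factor genes of neural progenitors, chosen after their values were seen. The region chr3:34584001-34587800 lay in Sox2ot, the transcript that surrounds Sox2, a factor of neural stem cell identity, and was covered over 3000 and 2800 bp at 62605 bp from Sox2. The region chr1:42641601-42646200 lay in Pantr1, 49568 bp from Pou3f3, a factor of upper-layer cortical neurons, and was covered over 4600 and 3600 bp. The region chr13:28841001-28844800 lay in 2610307P16Rik, 104119 bp from Sox4, a factor of neuronal differentiation, and was covered over 3200 and 2600 bp. The nearest shCTR peaks were 4200, 1800 and 5800 bp from these 3 regions, in the order named. Within 50 kb on each side, shCTR peaks covered 26400 and 23600, 7200 and 5600, and 22000 and 25400 bp in replicates 1 and 2. The shPHF8 peaks covered 27400 and 29600, 11000 and 12000, and 31200 and 27000 bp there.

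Genes of microRNAs (miRNAs), short RNAs that repress mRNAs through pairing of their seed (bases 2 to 8), were overlapped by 11 gained regions, 12 genes in all. Small RNA genes of every kind were overlapped by 22 gained regions (1.20%, 0.797 to 1.82%), near the 0.990% over all regions outside protein-coding genes, the 1.23% of lost and the 1.53% of shared regions. RefSeq tables (GRCm38.p6) gave mature sequences for 5 of these 12 miRNA genes. The 7 mature miRNAs below, with the seed in capitals, are some of the RNAs that these regions encode. They were chosen after their values were seen. For let-7a-2 only the 3p sequence was given, so its other mature product, let-7a-5p, and the seed of that product are missing here.
mmu-let-7a-2-3p: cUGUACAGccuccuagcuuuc
mmu-miR-100-5p: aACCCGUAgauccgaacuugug
mmu-miR-100-3p: aCAAGCUUgugucuauagguau
mmu-miR-146a-5p: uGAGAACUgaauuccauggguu
mmu-miR-146a-3p: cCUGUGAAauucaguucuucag
mmu-miR-378d: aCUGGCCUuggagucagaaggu
mmu-miR-6363: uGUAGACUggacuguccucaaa

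No seed occurred more than 1 time among these 7. The let-7a-2 and miR-100 genes lie in one host transcript on chromosome 9, and the let-7 family is known for promoting neuronal differentiation. The mature let-7a-2-3p sequence (chr9:41536777-41536797) was under a peak in both shPHF8 libraries, whereas miR-100-5p (chr9:41531437-41531458) was under a peak of shPHF8 replicate 2 only. The sequence of miR-378d (chr10:126710355-126710376) was covered in both shPHF8 libraries. Those of miR-146a (near Pttg1) were covered in replicate 1 only, and that of miR-6363, in a region that also overlaps the lncRNA gene Dubr, in replicate 2 only. No shCTR peak covered any of the 7. The region is the unit of the rule, so a gene within a gained region need not be covered in both replicates.

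Immunoglobulin genes are not counted as protein-coding in the annotation, and 4 gained regions overlapped 1 each: Ighe, Ighg1, Ighv5-12-4 and Ighv8-2, which encode parts of antibody heavy chains and are used in B cells. The region over Ighg1, chr12:113325001-113331200, was covered over 6000 and 3600 bp, with the nearest shCTR peak at 3200 bp. The region over Ighv8-2, chr12:114459001-114465600, was covered over 3600 and 6600 bp, with the nearest shCTR peak at 83200 bp. These regions were chosen after their values were seen. Genes of this remaining class are neither lncRNA, pseudogene nor small RNA, nor of the type that the annotation names TEC. They were overlapped by 17 of all 37055 regions outside protein-coding genes, 5 of the shared and 0 of the lost regions, counts too low for a comparison.

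The G+C content of gained regions spread about as widely as that of shared regions and less widely than that of lost regions, which were narrower. Its median was 44.2%, with 5% of regions below 39.1% and 5% above 49.2%, whereas lost regions had a median of 44.3% and spread from 37.1 to 50.9%, and shared regions had a median of 44.6% and spread from 39.0 to 50.0%, over the same percentiles. Of regions with a G+C content of 42 to 46%, 912 of 16052 were gained (5.68%, 5.33 to 6.05%), against 44 of 1439 at up to 38% (3.06%, 2.29 to 4.08%) and 48 of 2034 above 50% (2.36%, 1.78 to 3.11%). The lost share was lowest in the middle class, at 3.09%, against 7.71% in the lowest and 5.85% in the highest class. Narrower regions vary more in composition, yet the gained shares kept their order among regions 3 to 6 kb wide, at 8.29%, 5.55% and 3.88%. The lost shares at this width were 2.74%, 5.86% and 5.22% in the same classes. The lowest lost share was then 2.65%, at a G+C content of 46 to 50%. The genome on chromosomes 1 to 19 had a G+C content of 41.9%, and the 100 kb around gained regions had a median of 42.9%.

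At the upper end of the range stood chr12:19043801-19044800 with 65.8% G+C and 7.90 CpG per 100 bases. The median over gained regions was 0.880 CpG per 100 bases, close to the 0.881 over all regions outside protein-coding genes. The region at 65.8% G+C was 1000 bp wide, the smallest width among gained regions, and held the start of the lncRNA gene Gm40849. It was covered over 600 and 800 bp in shPHF8 replicates 1 and 2, and 40% of its 50-base words were unique, as defined below. The next in CpG were chr5:94723401-94726600 (3.69 CpG per 100 bases) and chr15:89763801-89766400 (3.65 CpG per 100 bases), the latter 15993 bp from Syt10, a synaptotagmin gene. The shCTR peak nearest to the region on chromosome 5 was 1112400 bp away, but no library, shPHF8 included, had a peak in the 50 kb on each side. That region was 98.25% repeat-masked, and 15.6% of its words were unique, against 69.2% in the region on chromosome 15.

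Repeats differed between gained and lost regions in how often the sequence occurs in the genome. Words of 50 bases, the read length, were sampled every 100 bases and searched on both strands of the reference, and a word found once was called unique. In gained regions a median of 96.8% of words were unique, against 100% in lost and 97% in shared regions. All words were unique in 608 gained regions (33.3%, 31.2 to 35.5%), 792 lost regions (57.2%, 54.6 to 59.8%) and 3513 shared regions (26.6%, 25.9 to 27.4%). Among regions 3 to 6 kb wide these shares were 32.3% (29.7 to 34.9%), 47.4% (43.0 to 51.8%) and 33.4% (32.2 to 34.5%). Gained and shared intervals overlapped at this width, and the lost share stayed higher. Of regions with at most 50% unique words, 44 of 602 were gained (7.31%, 5.49 to 9.67%) and 11 lost (1.83%), and of those with unique words only, 608 of 14675 were gained (4.14%, 3.83 to 4.48%) and 792 lost (5.40%). Among regions 3 to 6 kb wide the gained shares at these ends were 14.6% (10.4 to 20.1%) and 6.60% (6.00 to 7.26%). Over all widths, 135 of 1924 regions with 50 to 75% unique words were gained (7.02%, 5.96 to 8.25%). This interval overlaps that of regions with at most 50%, so these classes are not separated. The share gained was thus higher where reads of this length are harder to place at 1 site than where all words were unique.

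The share with more than 50% of bases repeat-masked was 22.2% in gained (20.4 to 24.2%), 18% in lost (16.0 to 20.1%) and 16.8% in shared regions (16.1 to 17.4%). Over all 37055 regions outside protein-coding genes it was 20.7%, inside the gained interval. Among regions with at least 90% unique words it was 9.63% in gained (8.18 to 11.3%) and 10.6% in lost regions (8.996 to 12.5%). These intervals overlapped, so gained and lost regions were not separated there. In shared regions with at least 90% unique words it was 7.35% (6.87 to 7.86%), below the gained interval. How the aligner placed reads that match several sites is not given in the sources used here, and its part in these differences was not tested.

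**Figure D3:**
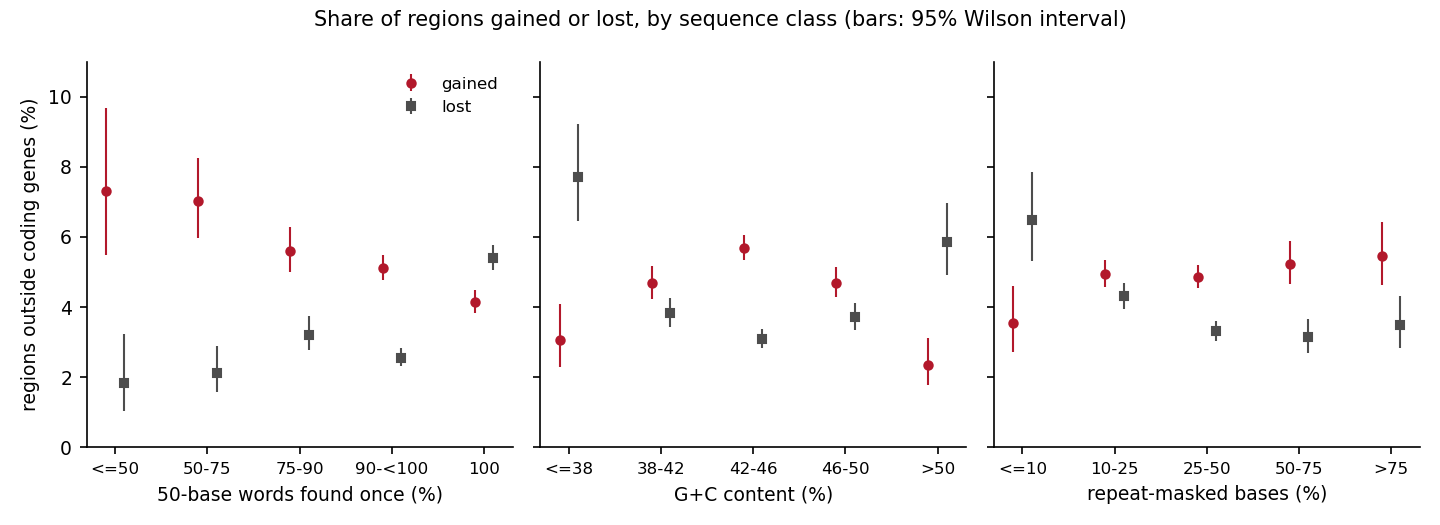
Share of the 37055 regions outside protein-coding genes that were gained (red circles) or lost (grey squares), in %, by unique 50-base words (left), G+C content (middle) and repeat-masked bases (right), all in %. Bars are 95% Wilson intervals. The gained share falls from 7.31% to 4.14% as unique words rise, and peaks at 5.68% in the middle G+C class, where the lost share is lowest at 3.09%.

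The share of regions gained differed little with the distance from protein-coding genes. The gained regions lay at a median of 69684 bp from the nearest protein-coding start site, against 66134 bp for lost and 57608 bp for shared regions. The gained share was 4.39% (3.77 to 5.1%) at 3 to 10 kb from a start site, 4.94% at 10 to 50 kb, 4.52% at 50 to 100 kb, 5.18% at 100 to 500 kb and 5.56% (4.67 to 6.60%) beyond 500 kb, where 121 gained regions lay. Intervals of these 5 classes overlapped. The region farthest from any start site, chr14:91825001-91830800, lay 2054948 bp from that of Pcdh9, a protocadherin gene, and was covered over 5800 and 4200 bp. The next were chr1:48972601-48978200 at 1922447 bp from Tmeff2, chr1:48697201-48699600 at 1804349 bp from Slc39a10, chr2:47093801-47096600 at 1717509 bp from Acvr2a and chr10:47379801-47385800 at 1707243 bp from Hace1.

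At the other end, the gained regions just beyond the 3 kb limit lay 3037 bp from the start of Calhm3, 3079 bp from Olfr473 and 3089 bp from Olfr465-ps1. Those just within it, at Serpina3f, Gimap9 and Enpp2, lay 2944, 2929 and 2909 bp away and are not members. In all, 47 gained regions overlapped no protein-coding gene and lay within 3 kb of a start site, and 1158 overlapped a protein-coding gene.

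Gained regions were found on each of chromosomes 1 to 19. Chromosome 7 had the highest share, with 155 of 2265 regions outside protein-coding genes (6.84%, 5.87 to 7.96%), followed by chromosome 13 with 149 of 2446 (6.09%, 5.21 to 7.11%). Chromosome 2 had the lowest, with 94 of 2531 (3.71%, 3.04 to 4.52%), and there and on chromosome 11 more regions were lost than gained. By length, chromosome 13 led with 12.4 gained regions per 10 Mb, and chromosome 2 had 5.16.

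**Figure D4:**
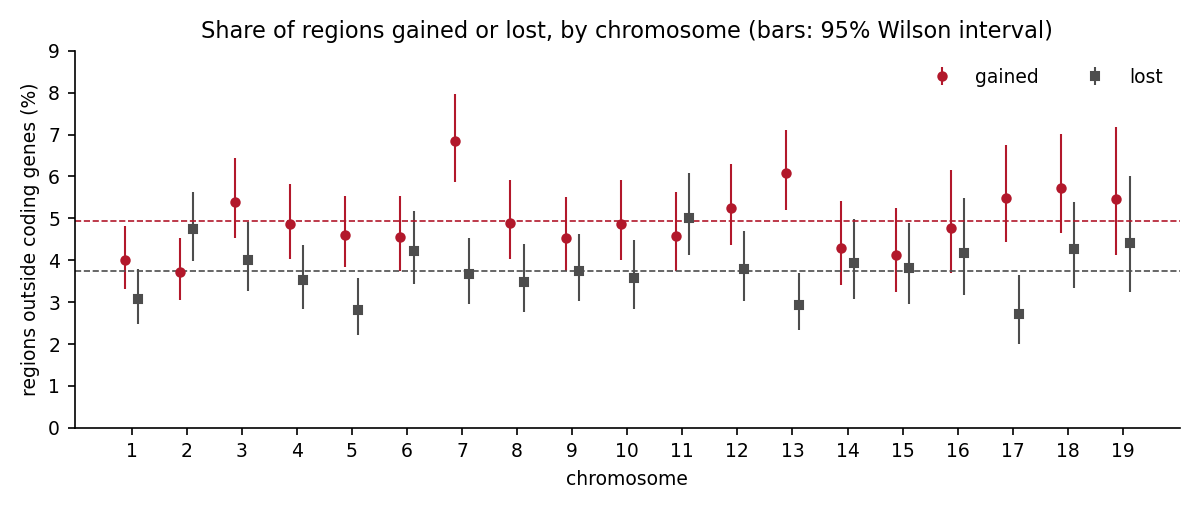
Share of regions outside protein-coding genes (%, y axis) that were gained (red circles) or lost (grey squares) on each chromosome (x axis), with 95% Wilson intervals as bars and dashed lines at the shares over all chromosomes, 4.93% and 3.74%. Chromosome 7 (6.84%) and chromosome 13 (6.09%) have the highest gained shares, and on chromosomes 2 and 11 the lost share is the higher one.

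Most gained regions stood alone, with a few dense stretches. The gap from a gained region to the next one had a median of 219 kb, and 128 regions (7.01%) had another within 10 kb, against 299 kb and 114 (8.23%) for lost regions. Of 2473 windows of 1 Mb, 1039 held a gained region and 35 held at least 5. Lost regions occurred in 874 windows, 20 of which held at least 5, and the most in 1 window was 13, above the 11 of the densest gained window.

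The window with the most gained regions was 18 to 19 Mb on chromosome 12, with 11 gained and 0 lost among 68 regions outside protein-coding genes. The next megabase held 8 gained and 0 lost among 52. The nearest protein-coding genes were 5730507C01Rik and Gm21863, the former with 14 gained regions, the most of any gene. Covered bases in the 11 regions ranged from 2400 to 8400 bp in shPHF8 replicate 1 and from 400 to 8400 bp in replicate 2. The widest, chr12:18202801-18212400, had 8200 and 8400 bp covered, and chr12:18542601-18551600 had 8400 and 8200 bp. These regions held from 38.5 to 77.1% unique words, all below the median of 96.8%, so that sequence of this window occurs elsewhere in the genome too.

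The next densest window, 72 to 73 Mb on chromosome 13, held 9 gained and 1 lost among 60 regions and differed in sequence. It covers the gene-poor surroundings of Irx1 and Irx2, homeobox genes of the Iroquois family that pattern the nervous system and other tissues. Its 9 regions held from 98.5 to 100% unique words and from 8.77 to 21.3% repeat-masked bases. They lay 109878 to 234278 bp from Irx1 or 91003 to 230603 bp from Irx2. The region chr13:72725201-72730400 was covered over 5200 and 5000 bp, and chr13:72785401-72792200, in the lncRNA gene Gm47902, over 6600 and 6000 bp. In chr13:72198001-72204200 the replicates differed, with 6200 and 1000 bp.

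Gene families were compared by the protein-coding gene nearest to each region, over lists written down with earlier results known. Cytochrome P450 genes, which encode oxidases of steroids and foreign compounds used mostly in the liver, were nearest to 161 regions, of which 18 (11.2%, 7.19 to 17.0%) were gained and 3 lost, against 4.93% and 3.74% over all. These 18 lay near 12 genes, at a median of 14.1 kb. Genes of the Cyp3a cluster on chromosome 5 accounted for 8 of them, such as chr5:145899201-145907800 at 19237 bp from Cyp3a11, covered over 6000 and 5800 bp. The Cyp2b cluster on chromosome 7 accounted for 5, among them chr7:26713401-26719800 at 26964 bp from Cyp2b23, covered over 5800 and 3600 bp. Genes of Ugt and Sult transferases, which conjugate the same kinds of compounds, were nearest to 30 regions, of which 3 were gained, all near Sult2a3.

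Olfactory receptor genes were nearest to 384 regions, of which 28 (7.29%, 5.09 to 10.3%) were gained and 15 lost, and vomeronasal receptor genes to 279, of which 20 (7.17%, 4.69 to 10.8%) were gained and 5 lost. Both families detect odours and pheromones and are silent outside sensory neurons. A region on chromosome 7, chr7:11762401-11767600, lay 320 bp from Vmn1r73 and was covered over 3800 and 4400 bp. Regions near P450, olfactory and vomeronasal receptor genes held a median of 88.9%, 90% and 85.4% unique words, below the 97.4% of all regions outside protein-coding genes. Zinc finger genes named Zfp, many of which encode repressors of repeats, were nearest to 873 regions, of which 40 (4.58%) were gained and 20 (2.29%) lost. Serpin genes were nearest to 62 regions with 4 gained, keratin genes to 23 with 1 gained, and solute carrier genes to 666 with 25 gained (3.75%) and 36 lost (5.41%). The clustered protocadherins were nearest to 1 region, which was not gained.

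**Figure D5:**
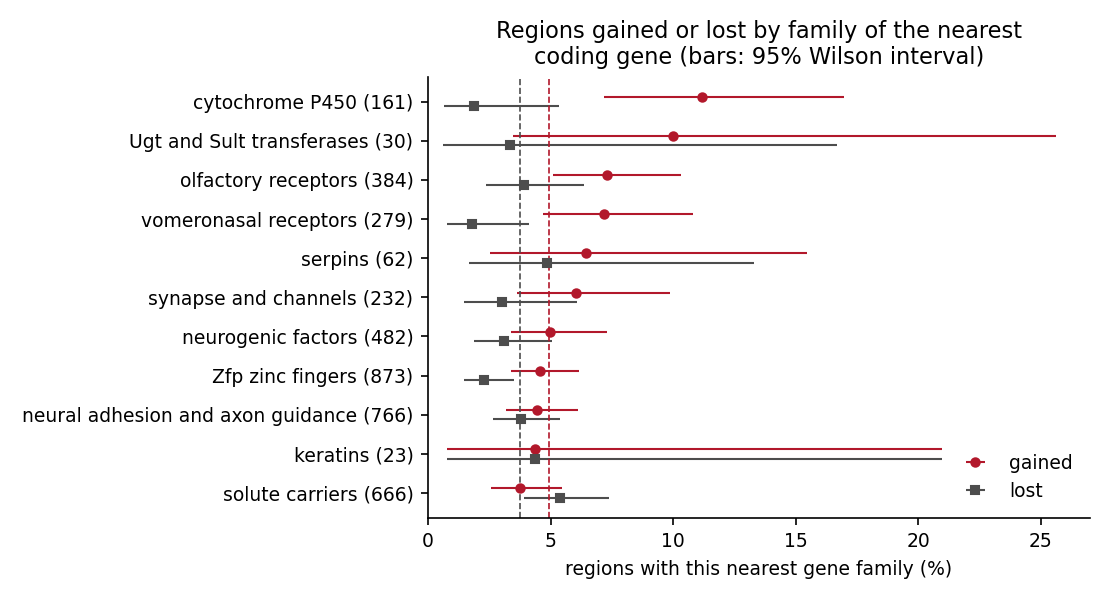
Share of regions (%, x axis) gained (red circles) or lost (grey squares) among those whose nearest protein-coding gene belongs to each family, with the number of regions in brackets, 95% Wilson intervals as bars and dashed lines at 4.93% and 3.74% for all regions outside protein-coding genes. For cytochrome P450 and olfactory receptor genes the gained intervals (7.19 to 17.0% and 5.09 to 10.3%) lie above the dashed line at 4.93%. The gained intervals of the 3 neural lists include it.

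Near genes of neural development and function, the share gained was that of all regions outside protein-coding genes within its interval. The 3 neural lists held 161 genes on chromosomes 1 to 19, which were nearest to 1480 regions, of which 72 (4.86%, 3.88 to 6.08%) were gained and 51 (3.45%) lost, against 4.93% and 3.74% over all. Factors of neurogenesis had 24 gained of 482 regions (4.98%), adhesion and axon guidance genes 34 of 766 (4.44%), and synapse and channel genes 14 of 232 (6.03%, 3.63 to 9.87%). The 72 regions lay near 45 genes, at a median of 184 kb. Counts named below for single genes are small and are picked from these 45. They were not tested against the 4.93% gained and 3.74% lost over all.

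Among factors of neurogenesis, Sox4 and Nr2f1, which encodes a patterning factor of the cortex, each had 4 gained regions. Those of Sox4 lay 24119 to 111719 bp from the gene, with 1800 to 3200 bp covered in shPHF8 replicate 1 and 1200 to 2600 bp in replicate 2, among 27 regions of which 0 were lost. Those of Nr2f1 lay 191044 to 490044 bp away, with 3200 to 6000 bp covered in replicate 1. The gene of the differentiation inhibitor Id4 had 3 gained regions of 43. Sox2, Pou3f3 and Zeb2 had 2 each, some of them far away: at 62605 and 477740 bp from Sox2, 49568 and 515368 bp from Pou3f3, and 1473606 and 1486406 bp from Zeb2. Sox2 and Zeb2 also had 2 lost regions each. Nfia, Sox5 and Nr2f2 had 1 each. The region near Nfia, a factor of glial differentiation, lay 44327 bp away and was covered over 2400 and 1400 bp.

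Among genes of the synapse, Gria1, which encodes a subunit of AMPA-type glutamate receptors, had 5 gained regions of 30, at 45957 to 413787 bp. They were covered over 8200, 6400, 6800, 4000 and 2400 bp in shPHF8 replicate 1 and over 2800, 5200, 2600, 3200 and 2200 bp in replicate 2. Replicate 1 covered more than replicate 2 in each of the 5. Gria2 had 2, and the NMDA receptor genes Grin2a and Grin2b had 1 each, at 42641 and 31290 bp. Csmd1, a gene for a large membrane protein of neurons, had 4 gained of 21 regions, all within chr8:15556001-15713400 and covered over 4600 to 8400 bp in replicate 1 and over 2000 to 4200 bp in replicate 2.

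Among genes of adhesion and axon guidance, Adgrl3 had 3 gained of 21 regions, and Chl1, Cntnap5b and Slitrk3 had 2 each. Both regions nearest to Slitrk3 were gained. Among cadherin genes Cdh2 had 2 gained regions, and 7 others had 1 each. Lost regions were found near these genes too. Cdh4 had 1 gained and 5 lost of 41 regions, and Cdh2, Cdh13, Cdh9 and Cdh6 had 1 lost each. Cdh8, Cdh12 and Cdh7 had 0 lost. The region near Unc5d, a netrin receptor gene, was among those with the lowest G+C content at 34.9% and was covered over 2000 bp in both shPHF8 libraries. In all, the 1826 gained regions had 1360 different nearest protein-coding genes, 1044 of them with 1 gained region and 94 with at least 3.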

How the data were processed

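H3K9me3 ChIP-seq peak lists of 4 libraries were used, 2 from shCTR and 2 from shPHF8 NSCs. The 2 inputs were not analysed here. According to the methods, the authors used SOAPaligner/SOAP2 to map reads to mm10 and SICER2 to call broad peaks. The submitters' processing notes name Bowtie2 2.3.5.1, SAMtools 1.9 and deepTools instead, and which made these lists is not given. The deposited files hold 0-based starts and inclusive ends on a 200 bp grid, with no score and no read counts. A call of presence depends on depth, and values were not adjusted for it. The study's supplement lists mapped reads per library, of these 4 fewest for shPHF8 replicate 2.

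Peaks on chromosomes 1 to 19 were merged where they overlapped or touched, after adding 1 to each end. Positions are printed 1-based. Genes and start sites came from GENCODE M21, and sequence, repeat-masked bases and counts of 50-base words came from GRCm38.p6 (66 contigs, 1725185 words). Python 3.11.15, NumPy 2.4.6, pandas 2.3.3 and SciPy 1.17.1 were used. The code was tested on simulated peaks against bedtools 2.31.1.

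Members and gene lists were chosen with earlier results of these data known. Named were the widest regions, those with the most bases covered in both shPHF8 libraries, those farthest from a start site, those extreme in G+C or CpG, those over lncRNA starts and pseudogenes, those nearest the 3 kb limit, those of the 2 densest 1 Mb windows and those nearest to a gene of 3 neural lists. Others are said to be chosen after their values were seen, as were the regions near P450, Sult and vomeronasal receptor genes and over immunoglobulin genes. Some regions that this rule names are not reported here. Intervals are 95% Wilson intervals. The exact permutation test is two-sided with a threshold of 0.05. Alternatives changed merging, overlap, peak width, peak number, ends, distance limits, chromosomes and libraries used.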

Additional observations from a re-analysis of the deposited data

Results flagged for a closer look

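Chromosome Y was outside the comparisons. It held 10 peaks in shPHF8 replicate 1 and 16 in shPHF8 replicate 2, against 6 in each shCTR library, and this was flagged because both shPHF8 lists held more there than the control lists. Chromosome X had fewer peaks in shPHF8, with 101 and 195, than in shCTR, with 262 and 250. Adding both chromosomes gave 1833 gained and 1410 lost regions outside protein-coding genes.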

How the results depend on the processing

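The counts moved with the way peaks were merged and filtered. Gained regions numbered 1826, and 1174 with peaks within 5 kb merged, 4006 where a library counted only if it covered at least 50% of a region, and 2946 with peaks of at least 2 kb only. Lost regions numbered 1385, and 748 and 614 under the first and last of these. With a library left out fewer lists have to meet the rule, and gained and lost regions numbered 3436 and 4302 without shCTR replicate 1, 3379 and 4143 without shCTR replicate 2, 6936 and 2334 without shPHF8 replicate 1, and 3783 and 3068 without shPHF8 replicate 2. Lost regions outnumbered gained ones only without a shCTR library. The replicate block, which asks for a peak in shPHF8 and none in shCTR of the same number, is the same rule by construction and gave 1826 and 1385. The labels do not say that a shared number pairs the libraries.

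The share within 10 kb of a shared region (32.4%) was 18.7% with peaks within 5 kb merged, 18.4% at 50% coverage, 23.2% with peaks of at least 2 kb, 26.8% with equal numbers of the widest peaks and 31.1 to 39.2% with a library left out. The share mostly repeat-masked (22.2%) was 27.1%, 20.0% and 20.3% under the first 3 of these, 19.7 to 27% with a library left out, and 9.63% among regions with at least 90% unique words, an alternative chosen after seeing the data. The share over a noncoding gene or pseudogene (22.4%) was 18.9 to 21.7% with a library left out. The difference in covered length stayed above 0 without each library in turn, also chosen after seeing the data.

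Positions without scores or depth limit these results to presence and width.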
